A study of Mus musculus with 2 samples.

Results

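The 8 glutathione transferase genes described here were Gsta3, Gsta4, Gstm1, Gstm5, Gstp1, Gsto1, Mgst1 and Mgst3, measured in single cells of mouse hepatoma grafts. They were taken by name from the 18685 genes of the antibody library, after their levels across that library's cell clusters were known, so those levels are a description and carry no test. In the IgG library 105 genes were complete, and Gsta3 was the 1 member among them. The other 7 members were therefore not compared between treatments.

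The first group was tumours of mice given intraperitoneal SIGLEC15 antibody, and the second was tumours of mice given intraperitoneal IgG. SIGLEC15 is an immune-regulatory sialic acid-binding lectin. In both groups the mice were male wild-type C57BL/6 animals of 6 to 8 weeks, kept specific pathogen free on a normal diet, and carried percutaneous grafts of Hep1-6, a mouse hepatoma cell line. The design text gives 3 mice per group, but each group was 1 library, so no difference between the groups has a replicate check. Cells enriched on anti-CD45 beads were mixed with unsorted tumour cells at equal parts before loading, which sets the share of immune cells. The libraries were 10x 3' v2 libraries, which count molecules (UMIs) at transcript 3' ends. The antibody library held 5482 cells with a median of 13714.5 UMIs, and the IgG library held 5765 cells with a median of 15733 UMIs over the 5739 cells whose depth could be recovered. The libraries shared 11 cell barcodes. The authors' names of 30 clusters were used as they stand, and 11 of these clusters were named Tumor.

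Glutathione transferases join glutathione to electrophiles such as lipid peroxidation products and drug metabolites, and several also reduce peroxides. The alpha, mu, pi and omega classes are soluble enzymes, while the microsomal transferases belong to a separate family of membrane proteins. Hepatocytes are a main site of these enzymes, and many of their genes are targets of the transcription factor NRF2, which binds the antioxidant response element.

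A marker check came before the levels. Levels below are UMIs per 1000000 UMIs of the cluster or class (CPM). The 10 hepatoma markers, which include albumin, alpha-fetoprotein and transthyretin, summed to 17869 CPM in the tumour clusters of the antibody library, between 11142 CPM in Tumor_4 and 36987 CPM in Tumor_11. All 10 were also above 0 in T cells, where they summed to 808 CPM, which is 4.52% of the tumour level. In the cluster named Unknown the list stood at 86.7% of the tumour level. In MDSC_5 it stood at 63.1%, and the 5 neutrophil markers summed to 987 CPM there against 58449 CPM in MDSC_1 to MDSC_4. The cluster named Fibroblast&Endothelial_1 held 34916 CPM of fibroblast markers and 2.67 CPM of endothelial markers, with Cdh5, Kdr and Emcn at 0. These clusters are reported under their deposited names, and Unknown and MDSC_5 are kept apart from the immune classes. Hepatoma markers also stood at 41.4% of the tumour level in Fibroblast&Endothelial_2 and at 18.6% in Macrophage_4, and both clusters are kept in the classes of their names.

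Gsta3, an alpha-class enzyme that detoxifies aflatoxin epoxide in mouse liver, lies on chromosome 1 at 21240589 to 21265661 on the plus strand (GRCm38, GENCODE M21; the build the authors counted against is not given in the sources used here). Gstm1, a mu-class enzyme, lies on chromosome 3 at 108012255 to 108017973 on the minus strand. These 2 genes varied most alike of all member pairs that include Gsta3 across the tumour clusters, and their upstream windows of 250 bases are shown for that reason, from RefSeq on GRCm38.p6. Capitals mark the core of the antioxidant response element, TGACNNNGC. The Gsta3 window is chr1:21240335-21240584 on the plus strand, and the Gstm1 window, read on the minus strand, is chr3:108017974-108018223.
Gsta3: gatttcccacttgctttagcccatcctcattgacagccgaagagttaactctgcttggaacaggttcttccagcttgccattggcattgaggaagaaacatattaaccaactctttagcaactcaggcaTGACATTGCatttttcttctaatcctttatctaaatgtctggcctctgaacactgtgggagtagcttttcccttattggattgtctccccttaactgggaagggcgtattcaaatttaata
Gstm1: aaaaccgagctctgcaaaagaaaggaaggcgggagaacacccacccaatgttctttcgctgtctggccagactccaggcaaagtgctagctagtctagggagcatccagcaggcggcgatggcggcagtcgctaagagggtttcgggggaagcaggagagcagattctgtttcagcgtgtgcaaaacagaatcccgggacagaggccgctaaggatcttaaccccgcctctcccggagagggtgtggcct
The Gsta3 window held 1 core match, TGACATTGC, at bases -121 to -113 from the start. The Gstm1 window shown is the first of 2 for that gene. Neither held the core, which says only that these letters are not in these windows. Among the 7 members with a window, 3 held the core on either strand, namely Gsta3, Gstm5 with TGACCACGC and Mgst1 with TGACCGTGC on the other strand. The AP-1 letters TGANTCA were in 2 members, as TGACTCA in Gstm5 and TGAGTCA in Gstp1. These 7 members have 9 windows, 2 each for Gstm1 and Mgst1, and the second Mgst1 window held no core. Over all 32851 windows of this length, counted by window and not by gene, 10.2% held the core and 6.75% held the AP-1 letters. A match is a description of sequence and no measurement of binding.

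Gsta3 was the member with the widest range across the tumour clusters, and every tumour cluster had less of it in the antibody library than in the IgG library. Its order across the tumour clusters was nearly the same in both libraries. The highest cluster was Tumor_11, with 470 CPM (95% interval 438 to 504) in the antibody library and 479 CPM (446 to 514) in the IgG library. Tumor_3 followed with 345 CPM (333 to 358) with the antibody and 371 CPM (359 to 383) with IgG. Intervals here and below are exact and cover counting error only.

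The middle of the order held 6 clusters. Tumor_2 had 249 CPM in the antibody library and 336 CPM in the IgG library. Tumor_7 had 206 CPM with the antibody and 328 CPM with IgG, and Tumor_4 had 206 CPM with the antibody and 259 CPM with IgG. In the antibody library the counting intervals of Tumor_7, Tumor_4 and Tumor_9 overlapped, as did that of Tumor_5 with Tumor_4 and Tumor_9, so their order is not resolved. Tumor_9 had 201 CPM with the antibody and 272 CPM with IgG, Tumor_5 had 179 CPM with the antibody and 214 CPM with IgG, and Tumor_8 had 139 CPM with the antibody and 214 CPM with IgG.

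The 3 lowest clusters were far below the rest in both libraries. Tumor_6 had 52.9 CPM with the antibody and 86.7 CPM with IgG, and Tumor_10 had 49.1 CPM with the antibody and 72.4 CPM with IgG, and in the antibody library their intervals overlapped. Tumor_1 had 23.5 CPM (20.4 to 26.8) with the antibody and 25.5 CPM (23.0 to 28.3) with IgG. In the antibody library the highest cluster stood 20.03-fold above the lowest, a wider range than that of 98.1% of the 3521 genes with at least 2000 UMIs in tumour cells, whose median was 2.11-fold. Over the 11 tumour clusters the log2(CPM + 20) levels of the libraries correlated with Pearson's r of 0.98 and Spearman's rho of 0.98. Clusters of 1 library are not replicates, and they share that library's depth and handling, so this is a description.

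**Figure D1:**
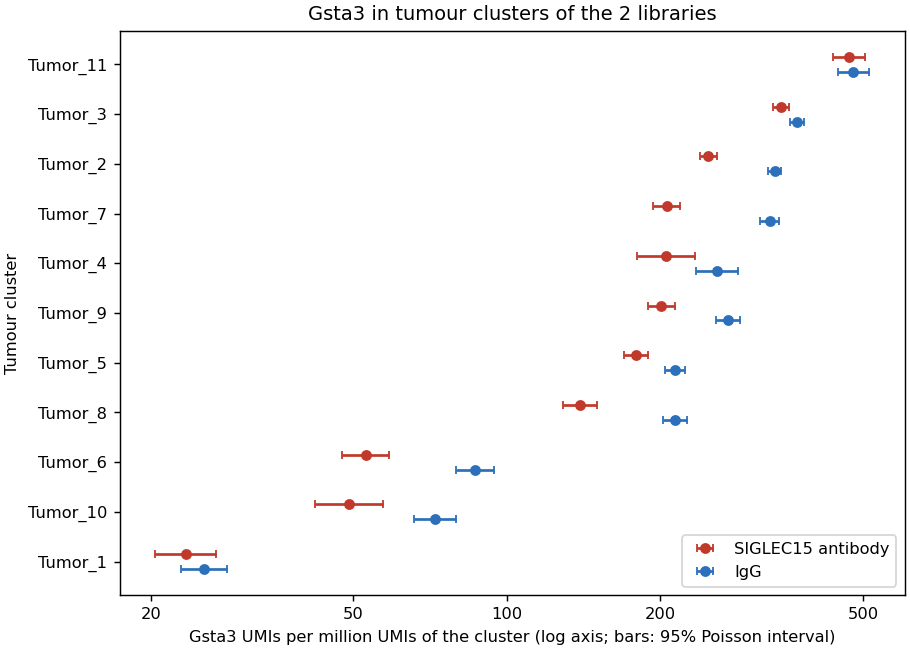
Gsta3 level in CPM on a log axis in the 11 tumour clusters, ordered by the antibody level, with the antibody point above the IgG point in each row and exact 95% Poisson intervals as bars. The antibody level lies below the IgG level in all 11 clusters, and both libraries have Tumor_11 at the high end and Tumor_1 at the low end.

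Set against IgG, the ratio of Gsta3 levels ran over the tumour clusters from 0.611 (0.532 to 0.6997) in Tumor_6 to 0.981 (0.887 to 1.08) in Tumor_11. The interval lay below 1 in 9 of the 11 clusters, and it held 1 in Tumor_11 and in Tumor_1, where the ratio was 0.920 (0.773 to 1.09). Those 2 clusters were the highest and the lowest for Gsta3. Tumor_7 had a ratio of 0.627 (0.581 to 0.676), and Tumor_3 had 0.931 (0.887 to 0.978). Of the 73 other genes held for both libraries with at least 50 UMIs in tumour cells, 2 were below 1 in all tumour clusters, Rrs1 and Rpl7, which is 2.74%, and 9.59% were above 1 in all of them.

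In all tumour cells together Gsta3 had 178.8 CPM from 11179 UMIs in 3213 antibody cells and 216.6 CPM from 16981 UMIs in 4364 IgG cells. The ratio was 0.825 (0.806 to 0.845), a log2 difference of -0.28. With 1 library per group this compares the libraries, not the treatments, and it has no p-value. It is set beside the 73 other shared genes with at least 50 UMIs in these cells. The shared genes are a stretch of chromosome 1, on which lay all 98 of the 105 that RefSeq's table could place, not a sample of the genome, so their shares and the rank of Gsta3 describe that stretch. Among them 6.85% were lower with the antibody by 1.2-fold or more and 16.4% were higher by as much, while 9.59% had an interval below 1 and 37.0% had one above 1. Their median ratio was 1.05, and Gsta3 ranked 5 from the lowest of 74 genes. Its neighbours in that order were Arid5a, an RNA-binding regulator of inflammatory transcripts, at 0.805 (0.684 to 0.946) and Adhfe1, a mitochondrial alcohol dehydrogenase, at 0.822 below it, and Stau2 at 0.826 and Bag2 at 0.846 above it. Stau2 binds double-stranded RNA and Bag2 is a co-chaperone of HSP70.

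**Figure D2:**
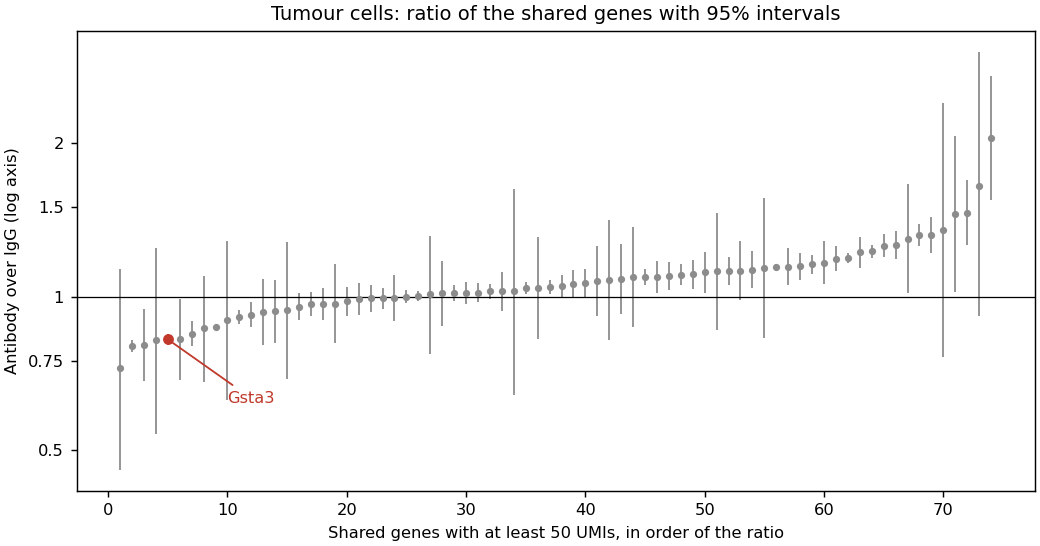
Ratio of the antibody to the IgG level in tumour cells for the 74 genes complete in both libraries with at least 50 UMIs, in order, on a log axis with exact 95% counting intervals. Gsta3, at 0.825, is marked at rank 5 from the lowest, and the median of the genes is 1.05.

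The libraries differed in the depth of their tumour cells, with a median of 20428 UMIs with the antibody and 18871.5 UMIs with IgG. Within ranges of depth the Gsta3 level stayed lower with the antibody. In cells of 500 to 5000 UMIs it was 191 CPM with the antibody and 245 CPM with IgG, a ratio of 0.781 (0.632 to 0.959). In cells of 5000 to 15000 UMIs it was 137 CPM with the antibody and 194 CPM with IgG, a ratio of 0.704. Cells of 15000 to 30000 UMIs had a ratio of 0.827, and cells of 30000 UMIs or more had 0.833. The shares of the clusters differed as well, and with the IgG clusters weighted as in the antibody library the tumour ratio was 0.784.

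Per cell, Gsta3 was absent from many deep tumour cells and abundant in others. Among tumour cells with at least 10000 UMIs, 31.5% of 2774 antibody cells and 26.7% of 3394 IgG cells had no Gsta3 UMI. The median was 0.936 Gsta3 UMIs per 10000 UMIs with the antibody and 1.28 with IgG, and the 90th percentile was 4.69 with the antibody and 5.51 with IgG. The most in 1 cell was 41 UMIs with the antibody and 48 with IgG. The median and the upper end were thus lower in the antibody library, and cells without a UMI were more frequent there.

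The clusters differed in how many of these deep cells held any Gsta3. In Tumor_11, 0% of the antibody cells and 1.37% of the IgG cells had no UMI, and the medians were 4.30 with the antibody and 4.36 with IgG per 10000 UMIs. In Tumor_1, 74.2% of the antibody cells and 69.3% of the IgG cells had none. In Tumor_7, 19.8% of the antibody cells and 7.63% of the IgG cells had none, with medians of 1.54 with the antibody and 2.82 with IgG. The libraries thus stood closest in Tumor_11 and apart in Tumor_7.

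**Figure D3:**
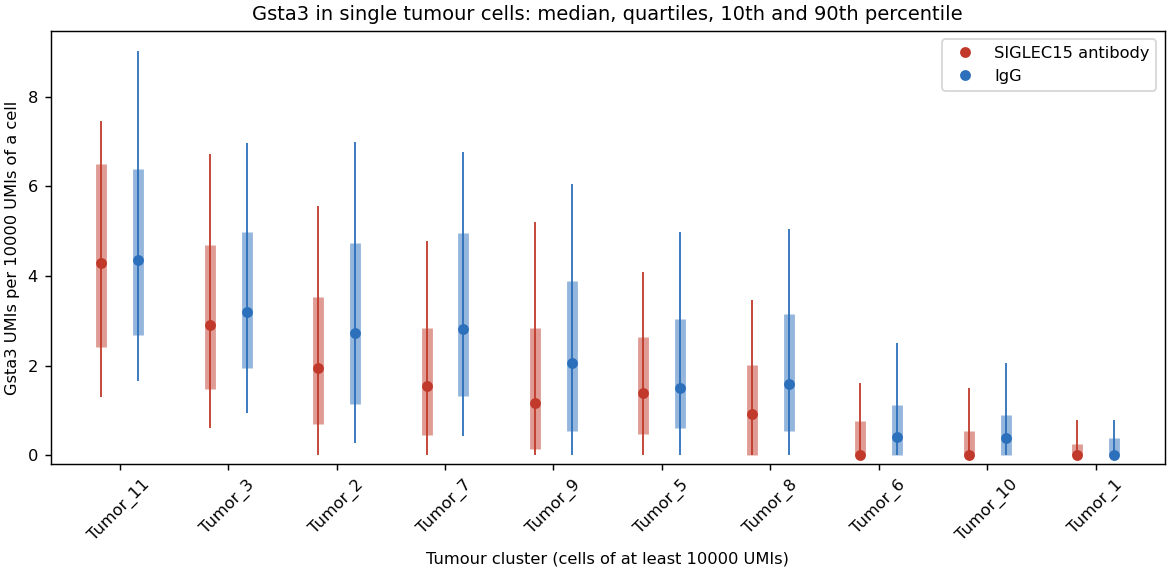
Gsta3 UMIs per 10000 UMIs of single tumour cells with at least 10000 UMIs, by cluster, for the antibody (left) and the IgG library (right); points are medians, thick bars quartiles and thin lines the 10th to the 90th percentile. The median is 4.30 with the antibody and 4.36 with IgG in Tumor_11, and 1.54 with the antibody and 2.82 with IgG in Tumor_7; Tumor_4 is left out for its few deep cells.

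Thinning to 1000 UMIs used only cells of at least that depth, which were 3175 antibody and 4268 IgG tumour cells. After it, 14.8% (13.5 to 16.0) of these antibody cells and 18.0% (16.8 to 19.2) of these IgG cells had a Gsta3 UMI. Unthinned and over all tumour cells, the shares were 64.2% with the antibody and 66.8% with IgG. T cells, which should lack this liver enzyme, gave 0.703% of cells with the antibody and 1.06% with IgG after thinning, and 3.14% with the antibody and 4.55% with IgG without it. Their median depths were 3856 UMIs with the antibody and 3910 UMIs with IgG.

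Outside the tumour clusters Gsta3 was low, and the counts were small. Macrophages had 11.8 CPM from 46 UMIs with the antibody and 19.6 CPM from 47 UMIs with IgG, a ratio of 0.603 (0.393 to 0.925), rank 1 from the lowest of 49 shared genes. Of the 48 others there, 10.4% were lower by 1.2-fold or more and 16.7% higher, and 6.25% had an interval below 1 and 6.25% above 1. T cells without the cluster named CD3_T had 5.86 CPM from 12 UMIs with the antibody and 10.0 CPM from 11 UMIs with IgG, a ratio of 0.584 (0.236 to 1.46). Of 39 other shared genes in T cells, 10.3% were lower by 1.2-fold or more and 41.0% higher, and 5.13% had an interval below 1 and 17.9% above 1. MDSC_1 to MDSC_4 had 24.8 CPM from 21 UMIs with the antibody and 37.0 CPM from 12 UMIs with IgG, a ratio of 0.668 (0.314 to 1.49). Of 14 others there, 14.3% were lower by 1.2-fold or more and 50% higher, and 7.14% had an interval below 1 and 21.4% above 1. Fibroblasts and endothelial cells had 13.8 CPM from 20 UMIs with the antibody and 23.5 CPM from 19 UMIs with IgG, a ratio of 0.588 (0.298 to 1.16). Of 33 others there, 12.1% were lower by 1.2-fold or more and 12.1% higher, and 3.03% had an interval below 1 and 3.03% above 1. In T cells, MDSC_1 to MDSC_4 and fibroblasts and endothelial cells no Gsta3 difference was detectable at this depth. The ratio of fibroblasts and endothelial cells was 1.18 without the deepest 5% of cells and 1.49 as a mean over cells, and that of T cells was 1.28 with clusters weighted alike. In macrophages of 5000 to 30000 UMIs the interval ran from 0.414 to 1.13. By cluster the ratio was 0.418 in Macrophage_1, 0.551 in Macrophage_2, 0.813 in Macrophage_4 and 1.27 in Macrophage_3. The interval held 1 in all of these but Macrophage_1.

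The hepatoma markers were also present in these classes. In antibody macrophages Gsta3 stood at 6.60% of its tumour level and the 10 hepatoma markers, all above 0, at 6.86% of theirs. In T cells Gsta3 stood at 3.28% and the markers at 4.52%, and in MDSC_1 to MDSC_4 at 13.8% for Gsta3 and 9.68% for the markers. In fibroblasts and endothelial cells the markers stood at 12.5% and Gsta3 at 7.73%. Of these, Fibroblast&Endothelial_1 had markers at 4.27% and Gsta3 at 3.98%, and Fibroblast&Endothelial_2 had markers at 41.4% and Gsta3 at 20.8%. The Gsta3 percents have no interval and rest on few UMIs, 21 in MDSC_1 to MDSC_4 and 20 in fibroblasts and endothelial cells. Within MDSC_1 to MDSC_4 the single cluster MDSC_4 had markers at 9.34% and Gsta3 at 3.52%, from 1 UMI. Hepatoma markers were not complete in the IgG library. The part of free tumour RNA in these levels was not tested.

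Across the 17 other clusters with at least 20 cells in each library, the Gsta3 ratio was below 1 in 14. The interval lay below 1 in 4 of them and above 1 in 0. No such count is given for the other shared genes in these clusters, so nothing about Gsta3 in particular is read from it. Of these 17 clusters Unknown and MDSC_5 had at least 50 Gsta3 UMIs in both libraries together, and the others had fewer. The 4 were Unknown, with 145.5 CPM with the antibody and 217.7 CPM with IgG, MDSC_5, with 58.4 CPM with the antibody and 172 CPM with IgG, Fibroblast&Endothelial_1 and Macrophage_1. Fibroblast&Endothelial_1 had 7.12 CPM with the antibody and 20.4 CPM with IgG, from 8 and 14 UMIs. Macrophage_1 had 9.14 CPM with the antibody and 21.8 CPM with IgG, from 13 and 17 UMIs. The Adipocyte cluster, with 2 antibody cells and 32 IgG cells, was not compared; its Gsta3 level of 640 CPM with the antibody came from 14 UMIs. B cells had 0 Gsta3 UMIs in both libraries, which allows a share of cells with a UMI of up to 18.5% in the 18 antibody cells and 16.8% in the 20 IgG cells.

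The other members were read in the antibody library alone. All 8 were higher in tumour cells than in the other cells together, and 5 of them by 2-fold or more, against 13.0% of the 12803 genes with at least 50 UMIs. The members were chosen on this contrast, so nothing is read from the count. The other cells include Unknown, MDSC_5 and Adipocyte, whose hepatoma markers were high, and without these clusters the ratio of Gsta3 was 14.9 against 5.14 with them. With the other clusters weighted alike it was 3.03, and the ratio of Gstp1 was then under 2-fold. Their median log2 ratio of tumour over other cells was 1.45, beside -0.17 over all those genes. Tumour cells held between 88.3% and 96.5% of each member's UMIs and 84.3% of all UMIs. Molecules of different genes may be captured with different efficiency, so CPM levels are compared between clusters and not between genes.

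**Figure D4:**
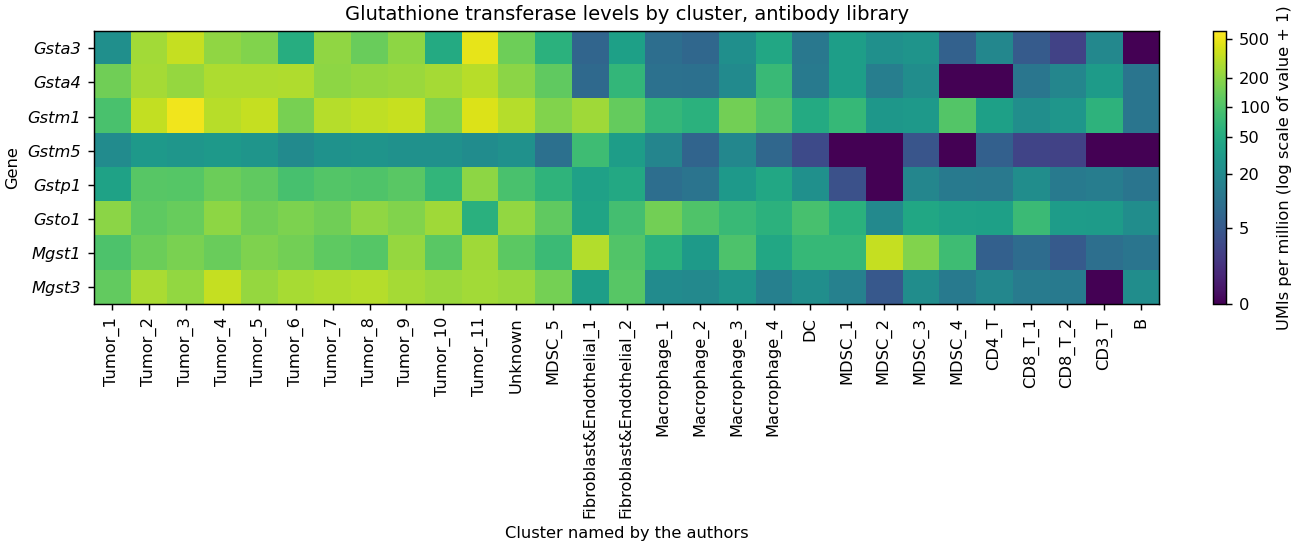
Level of each of the 8 genes in the antibody library, by deposited cluster, as a log colour scale of CPM + 1 from dark (0) to yellow (500 and above); the Adipocyte cluster of 2 cells is left out. Gsta3 is at the middle of the colour scale in Tumor_1, at 23.5 CPM, and yellow in Tumor_11, at 470 CPM. Gstm5 and Mgst1 reach 81.9 and 283 CPM in Fibroblast&Endothelial_1.

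Gsta4, the alpha-class enzyme with high activity on the lipid peroxidation product 4-hydroxynonenal, lies on chromosome 9 at 78182774 to 78209349. It had 231 CPM in tumour cells and 47.6 CPM in the other cells, a ratio of 4.86 (4.47 to 5.30), which was 15.1 without Unknown, MDSC_5 and Adipocyte and 3.14 with the other clusters weighted alike. Its tumour clusters lay close together, from 302 CPM in Tumor_11 to 151 CPM in Tumor_1, a 2.01-fold range that 45.1% of genes stayed below. In Tumor_6 and Tumor_10, where Gsta3 was at 52.9 and 49.1 CPM, Gsta4 stood at 276.5 and 254 CPM. The pair of alpha-class genes therefore parted in these clusters, and over the 11 tumour clusters their levels correlated with r of 0.45 and rho of 0.29. No Gsta4 UMI was found in 9.41% of deep tumour cells, those with at least 10000 UMIs.

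Gstm1 had 297 CPM in tumour cells and 119 CPM in the other cells, a ratio of 2.51 (2.38 to 2.65), which was 3.80 as a mean over cells. It was highest in Tumor_3 with 527 CPM, followed by Tumor_11 with 430 CPM, and lowest in Tumor_1 with 94.2 CPM, Tumor_6 with 160 CPM and Tumor_10 with 179 CPM. The 3 lowest clusters of Gstm1 were the 3 lowest of Gsta3. Over the 11 tumour clusters the 2 genes correlated with r of 0.95 and rho of 0.77. These points share 1 library and the authors' clustering, which used expression, and no p-value is given for any of these correlations. Outside the tumour clusters Gstm1 stood at 71.8% of its tumour level in fibroblasts and endothelial cells and 26.4% in macrophages. It stood at 19.0% in MDSC_1 to MDSC_4 and 8.37% in T cells. Fibroblast&Endothelial_1 had 238 CPM from 267 UMIs, above Tumor_10, Tumor_6 and Tumor_1, with hepatoma markers at 4.27% of the tumour level. Macrophage_3, with 153 CPM, was above Tumor_1.

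Gstm5, the other mu-class gene here, lies on chromosome 3 at 107895821 to 107898686 and had few UMIs in tumour cells, 1592 in all. It ranged there from 30.9 CPM in Tumor_4, from 35 UMIs, to 20.6 CPM in Tumor_6. The interval of Tumor_4 overlapped that of Tumor_2 at 30.1 CPM. Its highest level among clusters with at least 20 cells was in Fibroblast&Endothelial_1, with 81.9 CPM (66.0 to 100.4) from 92 UMIs, which is 322% of the tumour level. Macrophages had 12.6 CPM and T cells 2.93 CPM. In MDSC_1 to MDSC_4 a single Gstm5 UMI was counted.

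Gstp1, the pi-class enzyme, lies on chromosome 19 at 4035407 to 4037985. It had 99.9 CPM in tumour cells and 33.6 CPM in the other cells, a ratio of 2.97 (2.69 to 3.30), which was 5.06 without Unknown, MDSC_5 and Adipocyte and 1.65 with the other clusters weighted alike. Tumor_11 was highest with 201 CPM and Tumor_1 lowest with 39.0 CPM, the same ends as for Gsta3, and the 2 genes correlated over tumour clusters with r of 0.89 and rho of 0.74. Gstp1 counts are uncertain, since 78.0% of the 50-base words in the last 500 bases of its transcripts also occur in other genes, the near-identical Gstp2 and Gstp-ps. For Gstm1 the share was 23.0%, with Gstm2-ps1, Gstm3 and Gm8834, and for the other 6 members it was 0%.

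Gsto1, the omega-class enzyme that reduces mixed disulfides and dehydroascorbate, lies on chromosome 19 at 47854970 to 47864790. It had 162 CPM in tumour cells and 103 CPM in the other cells, a ratio of 1.56 (1.47 to 1.66). Across tumour clusters it ran against Gsta3. It was highest in Tumor_10 with 242 CPM and lowest in Tumor_11 with 57.5 CPM, and Tumor_1 had 197 CPM. The correlation with Gsta3 over the 11 tumour clusters was r of -0.70 and rho of -0.76. Of the 8 genes it had the highest macrophage level relative to its tumour level, at 71.0%. Macrophage_1 had 153 CPM (134 to 175), Macrophage_2 had 101 CPM, Macrophage_3 had 75.6 CPM and Macrophage_4 had 60.5 CPM. The macrophages together had 115 CPM. CD8_T_1 had 77.6 CPM, CD4_T had 37.1 CPM and CD8_T_2 had 33.2 CPM. These T cells together had 65.9 CPM, 40.7% of the tumour level.

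**Figure D5:**
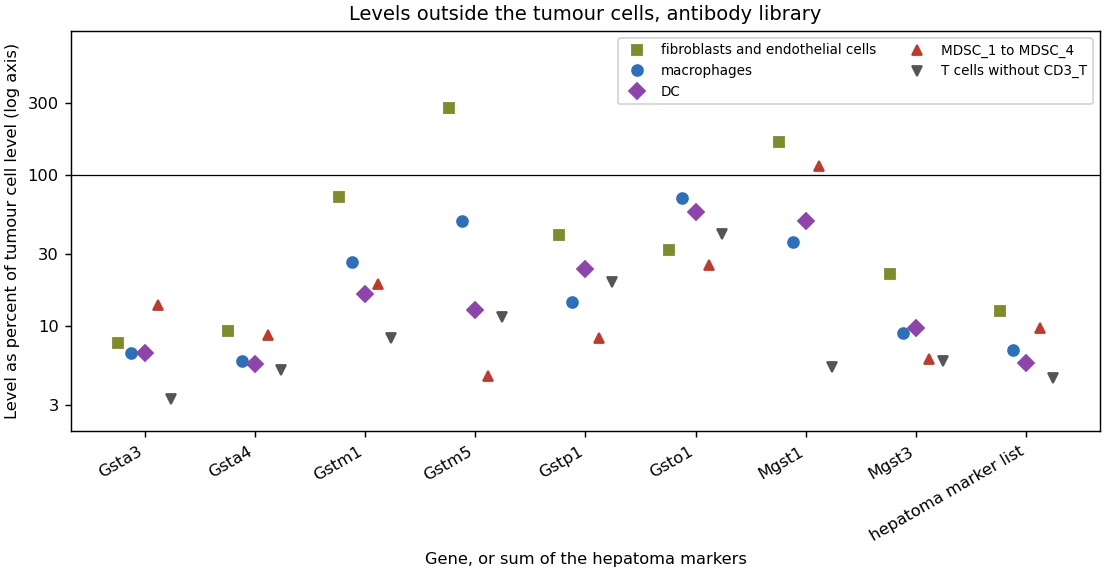
Level of each of the 8 genes in 5 kinds of cells outside the tumour clusters as a percent of its level in tumour cells, on a log axis, antibody library, beside the same percent for the summed hepatoma markers at the right; the line marks 100%. In macrophages Gsta3 is at 6.60% and the markers at 6.86%, while Gsto1 is at 71.0%; in fibroblasts and endothelial cells Gstm5 is at 279.7% and Mgst1 at 166%.

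Mgst1, the microsomal transferase of the endoplasmic reticulum and outer mitochondrial membrane, which also reduces lipid peroxides, lies on chromosome 6 at 138140316 to 138156755. It had 147 CPM in tumour cells and 88.8 CPM in the other cells, a ratio of 1.65 (1.55 to 1.76). Its range over tumour clusters was 2.40-fold, from 241 CPM in Tumor_11 to 100.1 CPM in Tumor_1, and it correlated with Gsta3 over them with r of 0.66 and rho of 0.61. Among myeloid clusters MDSC_2 had 343 CPM (269 to 433) from 72 UMIs, MDSC_3 had 177 CPM, MDSC_4 had 81.8 CPM and MDSC_1 had 70.9 CPM. MDSC_2 also held the most neutrophil marker RNA of the MDSC clusters, at 140538 CPM for the 5 markers.

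Fibroblast&Endothelial_1 had 283 CPM of Mgst1 (253 to 316). After thinning to 1000 UMIs, 24.3% of its cells and 26.4% of MDSC_2 cells had an Mgst1 UMI, against 0.684% of T cells. Of the 154 MDSC_2 cells, 118 had that depth and were used. MDSC_1 to MDSC_4 together stood at 115% of the tumour level of Mgst1, while the hepatoma markers stood at 9.68% there. Macrophages had 52.8 CPM, the cluster named DC 72.2 CPM and T cells 7.81 CPM.

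Mgst3, a microsomal transferase with peroxidase activity, lies on chromosome 1 at 167371966 to 167393841. It had 233 CPM in tumour cells and 60.2 CPM in the other cells, a ratio of 3.87 (3.59 to 4.18), which was 10.04 without Unknown, MDSC_5 and Adipocyte and 8.25 as a mean over cells. Tumor_4 was highest with 338 CPM and Tumor_1 lowest with 127 CPM. The interval of Tumor_4, whose median depth was 2483 UMIs, overlapped that of Tumor_8 at 295 CPM. With Gsta3 it correlated over tumour clusters with r of 0.50 and rho of 0.19. Outside the tumour Mgst3 stood at 5.86% of its tumour level in T cells and 9.02% in macrophages, beside hepatoma marker values of 4.52% and 6.86%. In MDSC_1 to MDSC_4 Mgst3 stood at 6.07% and the markers at 9.68%. In fibroblasts and endothelial cells Mgst3 stood at 22.2% and the markers at 12.5%, and in Fibroblast&Endothelial_1 at 14.9% and 4.27%. Its UMIs were missing from 7.21% of deep tumour cells.

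Tumor_1 was the lowest tumour cluster for Gsta3, Gsta4, Gstm1, Gstp1, Mgst1 and Mgst3, and Tumor_11 was the highest for Gsta3, Gsta4, Gstp1 and Mgst1. For Gsta4 the interval of Tumor_11 overlapped that of Tumor_6, and for Mgst1 that of Tumor_9, so these top places are not resolved. The hepatoma markers summed to 36987 CPM in Tumor_11 and 13274 CPM in Tumor_1. Tumor_6 had 27718 CPM of these markers, the highest after Tumor_11, and was among the 3 lowest for Gsta3. Of the members with at least 2000 tumour UMIs, Gsta3, Gstm1 and Gstp1 differed between their highest and lowest tumour cluster by 5-fold or more, as did 9.40% of 3521 genes.

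Over the 28 clusters with at least 20 cells, and among 8497 genes with at least 500 UMIs, the highest Pearson correlations of log2(CPM + 20) with Gsta3 were those of Akr1c6 with 0.96, Spp2 with 0.96, Tmed6 with 0.95, and Cabp1, Avpr1a, Lgals2, Ttr and C4bp with 0.94. Akr1c20 and Cyp2c68 followed with 0.93. Akr1c6 and Akr1c20 are aldo-keto reductases, Cyp2c68 a cytochrome P450, Ttr the thyroid hormone carrier transthyretin, C4bp a complement inhibitor and Avpr1a a vasopressin receptor. Ttr had 2564 CPM in Tumor_11 and 70.1 CPM in Tumor_1, and Akr1c6 had 406 CPM in Tumor_11 and 10.2 CPM in Tumor_1. The contrast of tumour with other cells drives part of any such correlation, and over the tumour clusters alone 3 of these 10 genes, Avpr1a, Cabp1 and Tmed6, were again among the 10 most like Gsta3.

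Each other member had its own nearest genes. For Gsta4 they were Dnajc22, Stard10 and Mtus2, each with 0.97, and for Mgst3 they were Tspan9, Eif6 and Crb3, each with 0.97. Gstp1 was most like Spr with 0.95, Hras with 0.94 and Rtn4rl1 with 0.94, and Gstm1 most like Tmem9 with 0.93, Lpcat3 with 0.92 and Fech, the ferrochelatase of haem synthesis, with 0.92. Gstm5 was most like Tceal8 with 0.94, Selenom with 0.93 and Kdelr2 with 0.92. The lowest such values were those of Gsto1, with Agpat5 at 0.89, Plek2 at 0.87 and Got1 at 0.87, and Mgst1, with Ifitm3 at 0.87, Crk at 0.84 and complement C3 at 0.83.

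The wider glutathione and NRF2 list held genes of both directions. It was chosen with earlier results of these data known, so its counts and those of its subgroups are a description. Of 62 listed genes 58 had at least 50 UMIs, and 21 of these were higher by 2-fold or more in tumour cells than in other cells while 17 were lower, beside 13.0% higher and 25.2% lower over all genes. Lower genes were about as frequent in the list as over all genes, and higher genes were more frequent. The median log2 ratio was 0.20, beside -0.17 over all genes with at least 50 UMIs. Other cells here include Unknown, MDSC_5 and Adipocyte, whose hepatoma markers were high, and list ratios without these clusters are not given. Of the other transferases 7 of 15 were higher and 2 lower, and the 2 with most UMIs were Mgst2 with 179 CPM in tumour cells and 38.1 CPM in other cells, and Gstt1 with 56.7 CPM in tumour cells and 18.9 CPM in other cells. The relatives of the microsomal transferases in leukotriene and prostaglandin synthesis differed. Alox5ap, the 5-lipoxygenase activating protein, had 0.416 CPM in tumour cells and 135 CPM in other cells, with 615 CPM in MDSC_1 to MDSC_4, and Ptges, a prostaglandin E synthase, had 20.6 CPM in tumour cells and 11.3 CPM in other cells.

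Genes of glutathione synthesis and recycling were divided, with 5 of 11 higher and 5 lower. Gclm, the modifier subunit of the first enzyme of synthesis, had 203 CPM in tumour cells and 86.2 CPM in other cells, while Slc3a2, the heavy chain of the cystine transporter, had 84.2 CPM in tumour cells and 177 CPM in other cells. Among 6 glutathione peroxidases 1 was higher and 4 were lower. Gpx1 had 163 CPM in tumour cells and 549 CPM in other cells, and Gpx4, which reduces phospholipid hydroperoxides, had 644 CPM in tumour cells and 376 CPM in other cells.

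Of 5 exporters of glutathione conjugates 2 were higher in tumour cells and 1 was lower. Abcc2 had 119 CPM in tumour cells and 26.1 CPM in other cells. Abcc3 had 80.9 CPM in tumour cells and 25.3 CPM in other cells. Abcc2 stood at 9.49 CPM in macrophages, 5.37 CPM in T cells, 9.43 CPM in MDSC_1 to MDSC_4 and 13.8 CPM in fibroblasts and endothelial cells. In the same classes Abcc3 stood at 23.3, 5.86, 9.43 and 6.91 CPM. Of 18 other NRF2 targets and regulators 6 were higher and 3 lower, and the 2 most abundant, Prdx1 and Txn1, had 1578 and 1140 CPM in tumour cells, against 927 and 986 CPM in other cells.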

How the data were processed

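The submitters' processing notes name Cell Ranger 2.1.1. How cells were filtered and clustered is not given in the sources read here. The deposited matrices hold natural log values, ln(1 + 10000 × UMIs / cell total), and the authors gave each cell a cluster name. The UMIs were recovered in Python 3.11.15 (scipy 1.17.1, numpy 2.4.6, pandas 2.3.3), with a depth chosen to make all values of a cell whole within 0.001. All 15274637 antibody values above 0 were whole by that choice. The UMIs summed to the depth in all 5482 antibody cells, which was not part of the choice. The lowest antibody depth was 553 UMIs, and 26 IgG cells gave no depth, since they held no UMI of a shared gene, Gsta3 included. A depth was found for 280 of 299 IgG cells in MDSC_1 to MDSC_4 and 373 of 376 in macrophages. It was found for 97 of 101 in fibroblasts and endothelial cells, and for all tumour cells. Leaving such cells out raises the IgG Gsta3 levels and shares of these 3 classes, and by how much was not tested. From the shared genes alone the depth was equal in 5440 antibody cells, different in 8 and missing in 34. For the IgG library 105 genes could be used.

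Levels are UMIs summed over cells, as CPM. Ratios have exact conditional 95% intervals, levels Poisson and shares Clopper-Pearson intervals. The shared genes set beside Gsta3 needed 50 UMIs in both libraries together; Gsta3 ratios are given below that too, with their counts. With 1 library per group no test was made. No doublet caller was run; leaving out the deepest 5% of cells was an alternative. The ratio step was run on simulated Poisson counts, the model its intervals assume. This checks the calculation only, since the simulation held no spread between cells or libraries. The members and lists were chosen with earlier results of these data known. Named genes were the 8 members, the 10 genes most like Gsta3 and 3 most like each other member, the 2 list genes per subgroup with most UMIs, and the neighbours of Gsta3 in ratio. Gsta4 had no promoter window, and protein sequences were not used here.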

Additional observations from a re-analysis of the deposited data

How the results depend on the processing

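The Gsta3 ratio of antibody over IgG tumour cells, 0.825 as reported, was below 1 in all 20 alternatives. It was 0.788 with the median of the shared genes set to 1, 0.799 as a mean over cells, 0.798 with clusters weighted alike and 0.784 with the IgG clusters weighted as in the antibody library. Leaving out 1 tumour cluster at a time gave 0.791 to 0.855, with 0.792 without Tumor_1, 0.791 without Tumor_3, 0.849 without Tumor_6 and 0.855 without Tumor_7. All 11 tumour clusters were below 1 in each of the 3 alternatives run for that count. In MDSC_1 to MDSC_4 the ratio was 0.191 with at least 2000 UMIs per cell (50 antibody and 10 IgG cells). Fibroblasts and endothelial cells turned direction, to 1.49 as a mean over cells, 1.18 without the deepest 5% of cells and 1.15 in cells of 5000 to 30000 UMIs; the cause was not tested, and their reported interval held 1. T cells turned to 1.28 with clusters weighted alike, and the macrophage interval reached 1.13 in cells of 5000 to 30000 UMIs. MDSC_1 to MDSC_4 at 5000 to 30000 UMIs was not run, as too few cells remained. The genes most like Gsta3 shared 3 of 10 with the reported ones over tumour clusters only. The tumour over other ratio of Gsta3 lay between 3.03 and 14.9 over all alternatives, including those chosen after seeing the data, and no member fell below 1. No paired analysis was possible because each group has 1 library. Small counts outside tumour cells limit what can be seen there.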

Other observations

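Some list genes outside the naming rule, picked after their values were seen, were higher in some class outside the tumour than in the tumour cells together. Gstp3, a pi-class relative, had 22.2 CPM in tumour cells, with 77.8 CPM in Tumor_11, and 66.4 CPM in T cells. Its level was 13.1 CPM in macrophages, 13.0 CPM in MDSC_1 to MDSC_4 and 4.84 CPM in fibroblasts and endothelial cells. Against all other cells together its tumour ratio was 0.967 (0.848 to 1.11). Hpgds, the haematopoietic prostaglandin D synthase, had 3.14 CPM in tumour cells and 62.0 CPM in macrophages. Gstt2 had 8 UMIs in all antibody tumour cells, Gstt3 had 7 and Gstk1 had 1, while Gstt2 had 26.9 CPM in macrophages and 23.4 CPM in T cells. Gpx3, the secreted glutathione peroxidase, had 0.208 CPM in tumour cells and 733 CPM in fibroblasts and endothelial cells.

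The cystine transporter gene Slc7a11 had 40.6 CPM in tumour cells and 1077 CPM in MDSC_1 to MDSC_4, and glutathione reductase (Gsr) had 71.6 CPM in tumour cells and 510 CPM in MDSC_1 to MDSC_4. Haem oxygenase Hmox1 had 61.7 CPM in tumour cells and 747 CPM in macrophages, with tumour clusters between 221 CPM in Tumor_10 and 12.6 CPM in Tumor_3. These values come from the 1 antibody library and have no replicate check.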
